A study of Homo sapiens with 36 samples.

Results

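The insulin-like growth factor system was read here as 10 genes of the count table, selected by symbol from 26475 gene symbols in all. They are the ligand IGF2, the receptors IGF1R, INSR and IGF2R, and the binding proteins IGFBP2, IGFBP3, IGFBP4, IGFBP5, IGFBP6 and IGFBP7. IGFBP2 gave the reason for the choice, because its levels had been seen to lie on opposite sides of the control with hairpins and with guides in WiDr cells. Its levels in WiDr are therefore given as a description with no test, while the other genes, and IGFBP2 in the other lines, were tested.

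Poly-A RNA was sequenced from 36 libraries of 3 human cancer cell lines, in 12 groups of 3 biological replicates. MDA-MB-468 derives from a basal-like carcinoma of the breast, PANC-1 from a carcinoma of the pancreatic duct and WiDr from an adenocarcinoma of the colon or rectum. Each carried hairpin 1, hairpin 2 or a non-silencing hairpin in the pGIPZ vector, and WiDr in a second experiment carried guide 1, guide 2 or a non-targeting guide. Hairpins 1 and 2 and guides 1 and 2 address 1 common gene, and all groups of a line share its growth medium with fetal bovine serum, itself a source of growth factors. Whether the cells of a group were a pool or a clone, and which vector carried the guides, was not stated by the labels. For PANC-1 the second hairpin group is written as the libraries labelled hairpin 2.

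IGF1 and IGF2 act through IGF1R, a receptor tyrosine kinase that signals through IRS adaptors, PI3-kinase and AKT. INSR, the insulin receptor, forms hybrids with IGF1R and in one isoform also binds IGF2. IGF2R has no kinase, and takes IGF2 and enzymes tagged with mannose 6-phosphate to lysosomes. The secreted binding proteins hold most IGF outside cells and can limit or prolong its action, and proteases such as PAPPA and HTRA1 free it by cutting them. IGFBP7 binds IGFs only weakly, and IGFBP6 prefers IGF2.

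Library totals ran from 28371119 to 49237321 counts. The line markers largely followed the labels. A summed list of 6 basal epithelial genes (KRT5, KRT14, KRT17, KRT6B, EGFR and TRIM29) reached 3788 to 5910 CPM (a gene's count relative to the scaled library total) in MDA-MB-468 libraries, against 40.0 to 191 in PANC-1 and 102 to 181 in WiDr. A list of VIM, CDH2, ZEB1, KRT7 and AXL reached 3889 to 7186 CPM in PANC-1, against 1029 to 1547 in MDA-MB-468 and 7.63 to 23.1 in WiDr. Most of the PANC-1 sum was VIM (median 5740 CPM), and KRT7 went against the label, at 5.13 to 9.25 CPM in PANC-1 and 1017 to 1540 CPM in MDA-MB-468, where it made up most of the sum. A list of 6 intestinal genes reached 636 to 1366 CPM in WiDr, against 9.42 to 15.7 in PANC-1 and 0.558 to 1.71 in MDA-MB-468, and rested on LGALS4, KRT20 and VIL1. CDX1 had a median of 0.965 CPM in WiDr, while CDX2 and CDH17 went against the label, with medians of 1.91 and 0.416 CPM in WiDr and 5.64 and 2.50 CPM in PANC-1. A sum of 5 fibroblast genes stayed at 43.7 CPM or less in every library. In bulk RNA, fewer cells of a kind and less RNA per cell cannot be told apart.

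The lines used different members. Levels between genes are compared per kilobase of the longest transcript, as CPM per kb. In the MDA-MB-468 non-silencing libraries IGFBP3 led with 96.6 ± 5.95 CPM per kb (SD, n = 3), followed by IGFBP4 with 21.3 ± 4.33 and IGFBP2 with 15.5 ± 3.46. In PANC-1 non-silencing libraries IGF2R led with 26.3 ± 14.8 CPM per kb, while INSR was at 0.0627 ± 0.0235. In WiDr non-silencing libraries IGFBP6 and IGFBP4 led with 138 ± 11.9 and 136 ± 4.17 CPM per kb, and IGF2 was at 16.3 ± 0.268. IGF2 had 0 or 1 count in each of the 9 MDA-MB-468 libraries. IGFBP3 had 1 count in 1 of the 18 WiDr libraries, a non-silencing one, and 0 in the others, where 0 counts allow a level of up to 0.112 CPM in the shallowest library. IGFBP5 had 0 to 4 counts per WiDr library, and in PANC-1 10 counts in 1 hairpin 1 library and 0 in the other 8. IGFBP7 had at most 8 counts in any MDA-MB-468 or WiDr library.

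IGFBP2, an IGF binding protein with a preference for IGF2, stood above its control with hairpins and below it with guides in WiDr. The gene lies on chromosome 2 at 216632828 to 216664436 (hg38, plus strand), and its end is 7668 bases from the end of IGFBP5, which runs the other way. In WiDr cells with hairpin 1 the level was 61.1, 53.4 and 50.4 CPM in the 3 replicates, with hairpin 2 it was 27.2, 29.5 and 30.8 CPM, and with the non-silencing hairpin 10.4, 9.67 and 10.0 CPM. All 6 libraries of hairpins 1 and 2 lay above all 3 controls, by log2 fold changes of 2.45 and 1.54. In the guide experiment the level was 2.98, 3.07 and 3.28 CPM with guide 1, 6.76, 5.91 and 7.72 CPM with guide 2, and 15.3, 14.97 and 16.9 CPM with the non-targeting guide. Here all 6 libraries lay below all 3 controls, by log2 fold changes of -2.32 and -1.19. These values chose the gene and carry no test. The difference between guides and hairpins was -3.76 on the log2 scale, and the non-targeting guide stood 0.63 above the non-silencing hairpin.

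**Figure D1:**
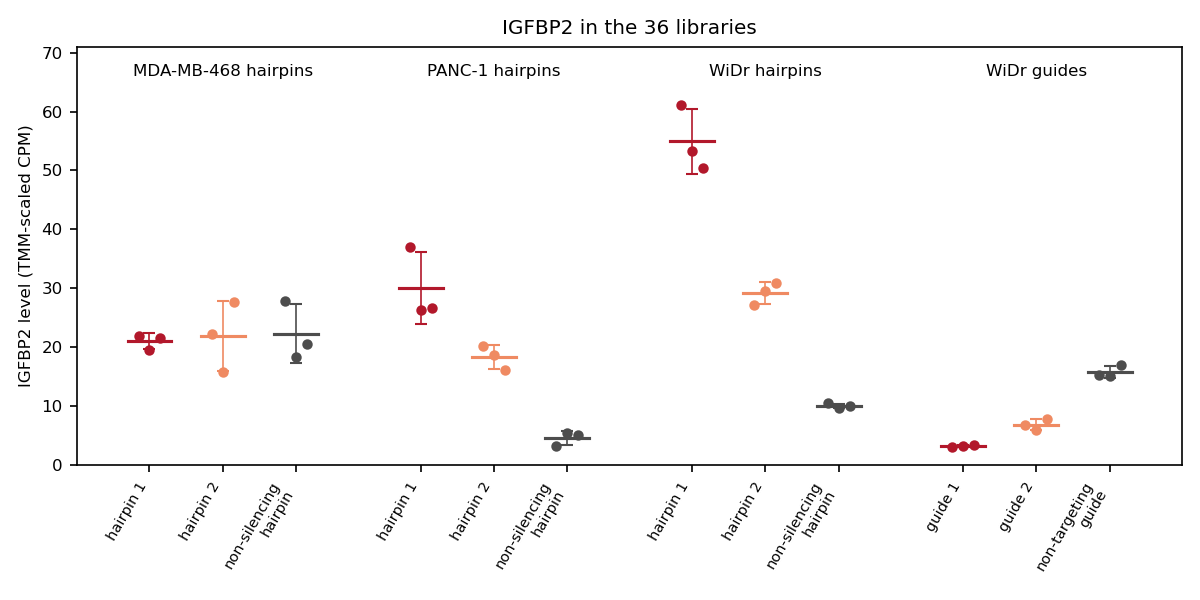
IGFBP2 level in each of the 36 libraries (vertical axis, CPM scaled by the trimmed mean of M values), by construct within each line. Points are libraries, long bars means and whiskers SD (n = 3). Hairpin groups of PANC-1 and WiDr lie above their non-silencing controls, WiDr guide groups lie below the non-targeting control, and MDA-MB-468 groups overlap.

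Between the constructs of each WiDr experiment the IGFBP2 levels did not overlap, which is again a description with no test. The level averaged 29.2 ± 1.84 CPM with hairpin 2 and 54.9 ± 5.55 CPM with hairpin 1 (SD, n = 3 each), a log2 difference of -0.91. With guide 2 it averaged 6.80 ± 0.906 CPM and with guide 1 3.11 ± 0.156 CPM, a log2 difference of 1.13. In both experiments construct 1 stood further from its control than construct 2. For 4 of the 6 targeting guide libraries a second label field names the other guide. Grouping by that field therefore puts libraries of both titles in the same group. Grouped by that field, the guide groups still stood below the non-targeting control, by -1.56 for guide 1 and -2.25 for guide 2, and the difference between guides was -0.70.

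In PANC-1, whose values were not the stated reason for the choice, IGFBP2 rose in both hairpin groups. The genes were chosen with earlier results of these data known, so this is not an independent check. The level was 37.0, 26.3 and 26.6 CPM with hairpin 1 and 20.2, 18.7 and 16.1 CPM in the libraries labelled hairpin 2, against 3.16, 5.37 and 4.95 CPM with the non-silencing hairpin. The groups did not overlap. The log2 fold changes were 2.76 (SE 0.220, edgeR adjusted p = 3.54e-05) and 2.01 (SE 0.217, edgeR adjusted p = 0.00017), folds of 6.77 and 4.03. In MDA-MB-468 the groups overlapped. IGFBP2 averaged 20.9 ± 1.34 CPM with hairpin 1 and 21.9 ± 5.99 CPM with hairpin 2, against 22.3 ± 4.98 CPM in the controls (SD, n = 3 each), with log2 fold changes of -0.12 (SE 0.214, edgeR adjusted p = 0.906) and -0.06 (SE 0.214, edgeR adjusted p = 0.978). Ordered over the 12 groups, IGFBP2 was highest in WiDr with hairpin 1, followed by PANC-1 with hairpin 1 and WiDr with hairpin 2, which overlapped, then by the 3 MDA-MB-468 groups and the PANC-1 libraries labelled hairpin 2, all overlapping their neighbours. Below them stood the WiDr controls and guide 2, each apart from the next, and the lowest were PANC-1 non-silencing and WiDr guide 1, which also overlapped.

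Of 9 members tested in PANC-1, 6 rose and 0 fell with hairpin 1, and 5 rose and 0 fell in the libraries labelled hairpin 2. Among all 15128 genes tested, 30.2% passed with hairpin 1 (16.2% up, 14.0% down) and 33.4% in the libraries labelled hairpin 2 (16.7% up, 16.7% down). IGFBP5 was too low to test. IGFBP7 entered the test only through the hairpin groups, since none of its 3 control libraries reached the count minimum, so without it the counts are 5 and 4 of 8. The median log2 fold change over the 8 without IGFBP7 was 0.92 and 0.81, against -0.02 and -0.0047 over all genes. Between the hairpin groups edgeR called 0 of 9 members, where 0.106% of all genes passed (0.0264% up, 0.0793% down). At an unadjusted p under 0.05 there were 3, a threshold at which the share of all genes was not counted. DESeq2 called 3 members, and 256 of all genes.

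IGFBP3, the main IGF carrier of blood plasma and also a secreted product of many epithelial cells, rose most in PANC-1. It had 34.6, 35.2 and 35.5 CPM with hairpin 1 and 37.7, 40.5 and 41.8 CPM in the libraries labelled hairpin 2, against 3.18, 4.22 and 3.40 CPM in the controls. The log2 fold changes were 3.31 (SE 0.120, edgeR adjusted p = 6.27e-07) and 3.46 (SE 0.121, edgeR adjusted p = 6.91e-07). INSR stood at 3.19, 3.60 and 3.51 CPM with hairpin 1 and at 2.55, 3.86 and 2.99 CPM in the libraries labelled hairpin 2, against 0.802, 0.413 and 0.469 CPM in the controls. It rose by 2.61 (SE 0.253, edgeR adjusted p = 9.74e-05) and 2.44 (SE 0.254, edgeR adjusted p = 0.00014) on the log2 scale, and its level in PANC-1 nevertheless stayed below that of every other line. IGFBP4, a binding protein that PAPPA cleaves, had 46.6, 34.1 and 37.0 CPM with hairpin 1 and 35.2, 34.3 and 31.9 CPM in the libraries labelled hairpin 2, against 13.6, 16.4 and 20.3 CPM in the controls. Its log2 fold changes were 1.24 (SE 0.161, edgeR adjusted p = 0.000537) and 0.99 (SE 0.161, edgeR adjusted p = 0.00178). For these genes every library of either hairpin lay above every control.

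IGFBP7 in PANC-1 had 68, 61 and 65 counts with hairpin 1 and 30, 30 and 27 counts in the libraries labelled hairpin 2, against 10, 4 and 9 counts in the controls. The groups did not overlap, and the fitted log2 fold changes were 2.94 and 1.86. Its exons overlap those of POLR2B and IGFBP7-AS1 on the other strand, and the strand setting of the counting is not given in the sources used here, so its counts may include theirs. IGF2 rose with hairpin 1 to 17.2 ± 1.69 CPM, against 11.6 ± 2.03 CPM in the controls (log2 fold change 0.59, SE 0.125, edgeR adjusted p = 0.00743). In the libraries labelled hairpin 2 IGF2 had 11.8 ± 0.527 CPM and did not pass (edgeR adjusted p = 0.999). IGF2 shares exons with the read-through gene INS-IGF2 and overlaps IGF2-AS, which are counted as rows of their own, so its counts are uncertain in that respect. IGFBP6 had 4.40 ± 0.977 CPM with hairpin 1 and 4.77 ± 0.192 CPM in the libraries labelled hairpin 2, against 4.002 ± 1.199 CPM in the controls, and did not pass (edgeR adjusted p = 0.641 and 0.45).

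**Figure D2:**
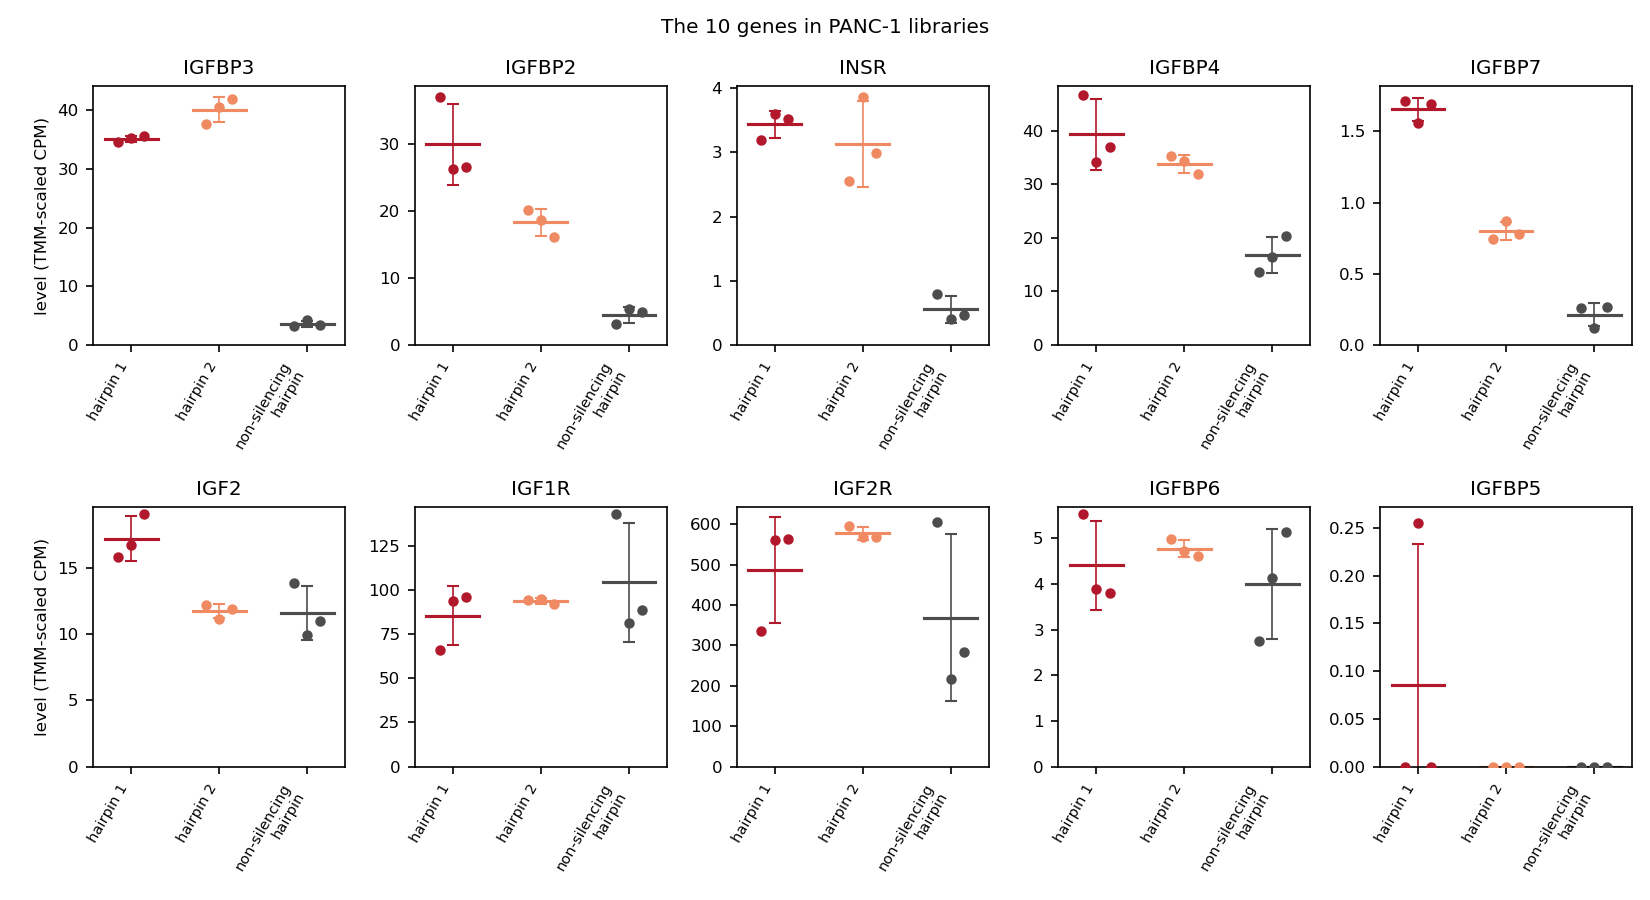
Levels of the 10 genes in the 9 PANC-1 libraries (vertical axes, scaled CPM, each from 0 with its own scale). Points are libraries, long bars means and whiskers SD (n = 3). For IGFBP3, IGFBP2, INSR, IGFBP4 and IGFBP7 the 6 hairpin libraries lie above the 3 controls, while IGF1R, IGF2R and IGFBP6 overlap and IGFBP5 has counts in 1 library.

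The bases before the start sites are shown for the 4 genes that rose in PANC-1 in both hairpin groups and passed the count minimum in the controls too. They did not move together in WiDr with hairpins, where IGFBP2 stood above its control, INSR fell and IGFBP3 was too low to test. Sequences are RefSeq's (GRCh38.p14), 5′ to 3′ on the strand of the gene, up to 250 bases before the start, with bases inside an annotated exon left out. IGFBP2 has 3 start sites in that table, and the window shown precedes the one nearest to the start of its principal GENCODE transcript, so that it lies inside the gene span given above, which begins with another transcript. Capitals mark GGGCGG, the GC box, and TATAAA, the TATA box, on either strand. Both are marked wherever they occur, and 3 of the 4 GC boxes of INSR overlap.
IGFBP2, chr2:216633170-216633394, plus strand: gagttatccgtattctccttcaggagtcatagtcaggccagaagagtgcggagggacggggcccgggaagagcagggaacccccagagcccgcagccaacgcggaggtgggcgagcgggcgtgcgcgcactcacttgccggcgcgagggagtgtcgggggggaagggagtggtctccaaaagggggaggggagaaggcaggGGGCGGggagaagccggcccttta
IGFBP3, chr7:45921275-45921522, minus strand: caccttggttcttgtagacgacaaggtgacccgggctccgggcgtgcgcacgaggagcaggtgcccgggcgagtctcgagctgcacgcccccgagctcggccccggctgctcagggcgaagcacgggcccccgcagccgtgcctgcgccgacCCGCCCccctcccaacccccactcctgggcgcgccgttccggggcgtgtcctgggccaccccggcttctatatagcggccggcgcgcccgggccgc
INSR, chr19:7294415-7294664, minus strand: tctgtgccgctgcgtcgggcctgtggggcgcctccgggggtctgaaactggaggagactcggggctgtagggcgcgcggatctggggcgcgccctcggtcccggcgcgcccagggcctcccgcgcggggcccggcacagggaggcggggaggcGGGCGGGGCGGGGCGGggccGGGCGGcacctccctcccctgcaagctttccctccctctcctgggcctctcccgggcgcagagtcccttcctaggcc
IGFBP4, chr17:40443200-40443449, plus strand: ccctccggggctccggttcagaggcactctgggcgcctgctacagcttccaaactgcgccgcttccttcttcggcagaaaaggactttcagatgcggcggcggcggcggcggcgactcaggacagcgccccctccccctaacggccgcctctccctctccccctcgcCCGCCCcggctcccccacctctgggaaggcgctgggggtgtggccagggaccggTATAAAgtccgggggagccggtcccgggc

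The GC box was found in all 4 windows, 4 times in INSR and 1 time in each of IGFBP2, IGFBP3 and IGFBP4. Over the members it was in 6 of 8 windows, also in those of IGF1R and IGF2R, which did not pass in PANC-1. Exon bases were left out of the member windows, which left 19 bases for IGFBP6. The GC box is present in 42.6% of the 35116 windows of 250 bases before a start site in RefSeq's table. Exon bases were kept in those windows, so the shares are not measured alike. Of the shown windows TATAAA was found in that of IGFBP4, and it is present in 10.7% of all windows. A match is a run of letters and not a measured binding site.

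IGF2R and IGF1R in PANC-1 did not pass. IGF2R had 334, 562 and 564 CPM with hairpin 1 and 596, 568 and 569 CPM in the libraries labelled hairpin 2, against 606, 217 and 284 CPM in the controls. Control replicate 1 lay above all the hairpin libraries, and control replicates 2 and 3 below them. The log2 fold changes were 0.43 (SE 0.341, edgeR adjusted p = 0.38) and 0.63 (SE 0.341, edgeR adjusted p = 0.179). Without control replicate 1 they were 0.95 (adjusted p = 0.00385) and 1.16 (adjusted p = 0.00108), while leaving out any other 1 library gave no call. IGF1R had 66.1, 93.4 and 96.2 CPM with hairpin 1 and 94.1, 94.8 and 91.9 CPM in the libraries labelled hairpin 2, against 143, 81.3 and 88.5 CPM in the controls, with log2 fold changes of -0.27 (SE 0.209, edgeR adjusted p = 0.371) and -0.17 (SE 0.209, edgeR adjusted p = 0.556).

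Both receptors have transcripts over 7 kb, and the share of counts on such genes differed between PANC-1 libraries. It was 8.73, 12.2 and 12.3% with hairpin 1 and 12.5, 12.1 and 13.0% in the libraries labelled hairpin 2, against 13.1, 8.05 and 7.99% in the controls. With a correction for transcript length, IGF1R fell by 0.37 (adjusted p = 0.00139) and 0.42 (adjusted p = 0.00064) on the log2 scale, and IGF2R did not pass with either. The ribosomal RNA share was 0.838 to 2.60% in the 6 hairpin libraries, against 4.61 to 9.60% in the controls. Leaving out the ribosomal RNA genes changed no member's call or direction in any experiment. The rises of IGFBP3, IGFBP2, INSR and IGFBP4 passed with the length correction, and with each library left out in turn.

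**Figure D3:**
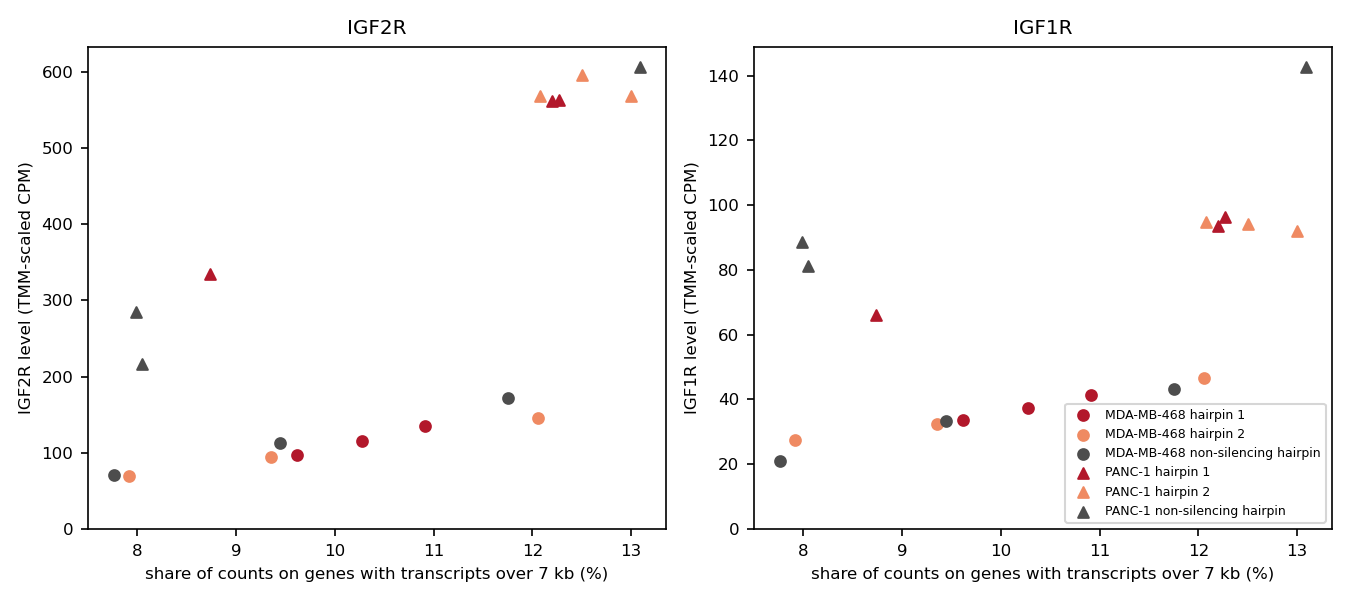
Levels of IGF2R (left) and IGF1R (right) in scaled CPM against the percent of counts on genes with transcripts over 7 kb, in the 18 MDA-MB-468 (circles) and PANC-1 (triangles) libraries. Colours give the construct. PANC-1 control replicate 1, at 13.1%, has the highest level of both genes, and the other 2 PANC-1 controls, near 8%, have IGF2R at 217 and 284 CPM.

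In WiDr with hairpins, 3 of 6 tested members fell with hairpin 1 and none rose, where 48.0% of all genes passed (24.1% up, 23.9% down). With hairpin 2, 4 fell and 1 rose, where 44.7% passed (22.2% up, 22.5% down). IGFBP2 stood outside these counts, and IGFBP3, IGFBP5 and IGFBP7 were too low to test. The share of members that passed was near that of all genes for hairpin 1. The ribosomal RNA share was 1.27 to 2.56% with hairpin 1 and 5.38 to 10.2% with hairpin 2, against 1.59 to 2.71% in the controls. IGF2 fell with both hairpins. It had 56.7, 65.1 and 65.6 CPM with hairpin 1 and 63.0, 56.3 and 63.2 CPM with hairpin 2, against 89.4, 90.7 and 92.4 CPM with the non-silencing hairpin, without overlap. Log2 fold changes were -0.54 (SE 0.0641, edgeR adjusted p = 4.99e-06) and -0.58 (SE 0.0641, edgeR adjusted p = 3.04e-06).

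INSR also fell with both WiDr hairpins. It had 17.7, 19.5 and 20.7 CPM with hairpin 1 and 28.7, 25.2 and 25.6 CPM with hairpin 2, against 34.6, 35.0 and 34.3 CPM in the controls. INSR gave log2 fold changes of -0.84 (SE 0.0726, edgeR adjusted p = 1.59e-07) and -0.39 (SE 0.0708, edgeR adjusted p = 0.000363), and hairpin 2 stood 0.45 above hairpin 1 (edgeR adjusted p = 0.000165). INSR was thus above the controls in all hairpin libraries of PANC-1 and below them in all hairpin libraries of WiDr. IGF1R did not pass, with 86.6 ± 9.29 CPM for hairpin 1 and 83.7 ± 1.34 CPM for hairpin 2, against 85.3 ± 3.51 CPM in the controls (SD, n = 3 each), although with the length correction hairpin 2 gave -0.21 (adjusted p = 0.000229).

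IGF2R fell with WiDr hairpin 1 and rose with hairpin 2, calls that did not hold in every fit. It had 237, 286 and 309 CPM with hairpin 1 and 449, 403 and 430 CPM with hairpin 2, against 320, 324 and 337 CPM in the controls. The log2 fold changes were -0.24 (SE 0.0753, edgeR adjusted p = 0.0168) and 0.39 (SE 0.0751, edgeR adjusted p = 0.000727), and the hairpins differed by 0.63 (SE 0.0754, edgeR adjusted p = 1.7e-05). The fall with hairpin 1 did not pass without control replicate 3 (-0.22, adjusted p = 0.0656), and with the length correction the rise with hairpin 2 was 0.18. In 1 fit of all 36 libraries the values were -0.24 (adjusted p = 0.579) and 0.40 (adjusted p = 0.334), the hairpins differed by 0.64 (adjusted p = 0.106), and none of these passed.

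IGFBP4 and IGFBP6 fell with hairpin 2 and did not pass with hairpin 1. IGFBP4 had 274 ± 18.5 CPM with hairpin 1 and 208 ± 4.44 CPM with hairpin 2, against 299 ± 9.17 CPM in the controls. Its log2 fold changes were -0.12 (edgeR adjusted p = 0.0824) and -0.52 (SE 0.0564, edgeR adjusted p = 2.4e-06). IGFBP6 had 160 ± 19.3 CPM with hairpin 1 and 125 ± 1.46 CPM with hairpin 2, against 162 ± 13.97 CPM in the controls, and its log2 fold changes were -0.02 (edgeR adjusted p = 0.86) and -0.37 (SE 0.0815, edgeR adjusted p = 0.00231). Both genes also differed between the hairpins, by -0.40 (edgeR adjusted p = 5.05e-05) and -0.35 (edgeR adjusted p = 0.00374). In the fit of all 36 libraries the IGFBP6 values with hairpin 2, over the control and over hairpin 1, were -0.36 (adjusted p = 0.102) and -0.33 (adjusted p = 0.145) and did not pass. Between the hairpins 4 of 6 tested members passed, with 2 higher and 2 lower for hairpin 2, where 42.4% of all genes passed (20.6% up, 21.8% down).

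With WiDr guide 1, 3 of 6 tested members fell and 1 rose, where 41.6% of all genes passed (21.4% up, 20.3% down). With guide 2, 2 fell, where 25.5% passed (14.1% up, 11.3% down). IGF2 had 78.5, 79.9 and 78.2 CPM with guide 1 and 129, 127 and 122 CPM with guide 2, against 132, 136 and 148 CPM with the non-targeting guide. It fell by 0.80 on the log2 scale with guide 1 (SE 0.0514, edgeR adjusted p = 3.38e-09), and the log2 fold change of -0.12 with guide 2 did not pass (edgeR adjusted p = 0.0887). Guide 2 stood 0.68 above guide 1 (SE 0.0514, edgeR adjusted p = 2.99e-08). Grouped by the second label field, the value for guide 1 over the control was -0.35 and did not pass (adjusted p = 0.247). IGF1R fell with both guides, with 84.7, 77.4 and 78.3 CPM for guide 1 and 82.3, 77.3 and 77.6 CPM for guide 2, against 97.0, 101 and 95.1 CPM in the controls. The log2 fold changes were -0.27 (SE 0.0539, edgeR adjusted p = 0.000641) and -0.28 (SE 0.0540, edgeR adjusted p = 0.00114), and with the length correction that of guide 2 was -0.10 and did not pass (adjusted p = 0.116). By the second label field guide 2 did not pass either (-0.31, adjusted p = 0.101), and in the fit of all 36 libraries neither guide did (-0.29 and -0.30, adjusted p = 0.314 and 0.391). The share of counts on transcripts over 7 kb was 9.89 to 12.3% in the 6 targeting libraries, against 12.5 to 12.6% in the controls.

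IGFBP6 rose with guide 1. It had 152, 167 and 176 CPM with guide 1 and 101, 105 and 122 CPM with guide 2, against 100, 96.9 and 105 CPM in the controls. The log2 fold change with guide 1 was 0.72 (SE 0.0700, edgeR adjusted p = 7.11e-07), and that with guide 2 was 0.13 (edgeR adjusted p = 0.181). By the second label field the value for guide 1 was 0.38 and did not pass (adjusted p = 0.174). IGFBP4 fell with guide 1 to 185 ± 6.09 CPM, against 256 ± 3.33 CPM in the controls (log2 fold change -0.45, SE 0.0473, edgeR adjusted p = 1.01e-06). With guide 2 it had 231 ± 10.3 CPM and did not pass (log2 fold change -0.13, edgeR adjusted p = 0.0544), although all 3 libraries lay below all controls. This fall passed with DESeq2 (adjusted p = 0.0236), no filter (0.041), RLE scaling (0.0364), a replicate block (0.024) and the length correction (0.00085). It did not pass in the fit of all 36 libraries, with the compared groups alone or without ribosomal RNA genes. By the second label field the IGFBP4 value for guide 1 was -0.26 and did not pass (adjusted p = 0.119). INSR had 29.6 ± 1.16 CPM with guide 1 and 27.0 ± 0.695 CPM with guide 2, against 27.3 ± 0.559 CPM in the controls, and did not pass (edgeR adjusted p = 0.106 and 0.975), while with the length correction guide 1 gave 0.20 (adjusted p = 0.00639). IGF2R passed with guide 2 alone, with 372, 292 and 297 CPM against 387, 380 and 379 CPM in the controls (log2 fold change -0.24, SE 0.0795, edgeR adjusted p = 0.0433). That call was lost when any of 6 libraries was left out, with the length correction (-0.05, adjusted p = 0.474), by the second label field (-0.04, adjusted p = 0.917) and in the fit of all 36 libraries (-0.26, adjusted p = 0.66). Between the guides 4 of 6 tested members passed, with 2 higher and 2 lower for guide 2, where 34.4% of all genes passed (17.4% up, 17.1% down). In the fit of all 36 libraries IGF2R (-0.26, adjusted p = 0.621) and IGFBP4 (0.32, adjusted p = 0.0746) were not called between the guides. By the second label field the direction of IGF2, IGF2R, IGFBP2, IGFBP4 and IGFBP6 between the guides was turned round. That field puts libraries of both titles in the same group, so calls lost under it do not test the groups by title.

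**Figure D4:**
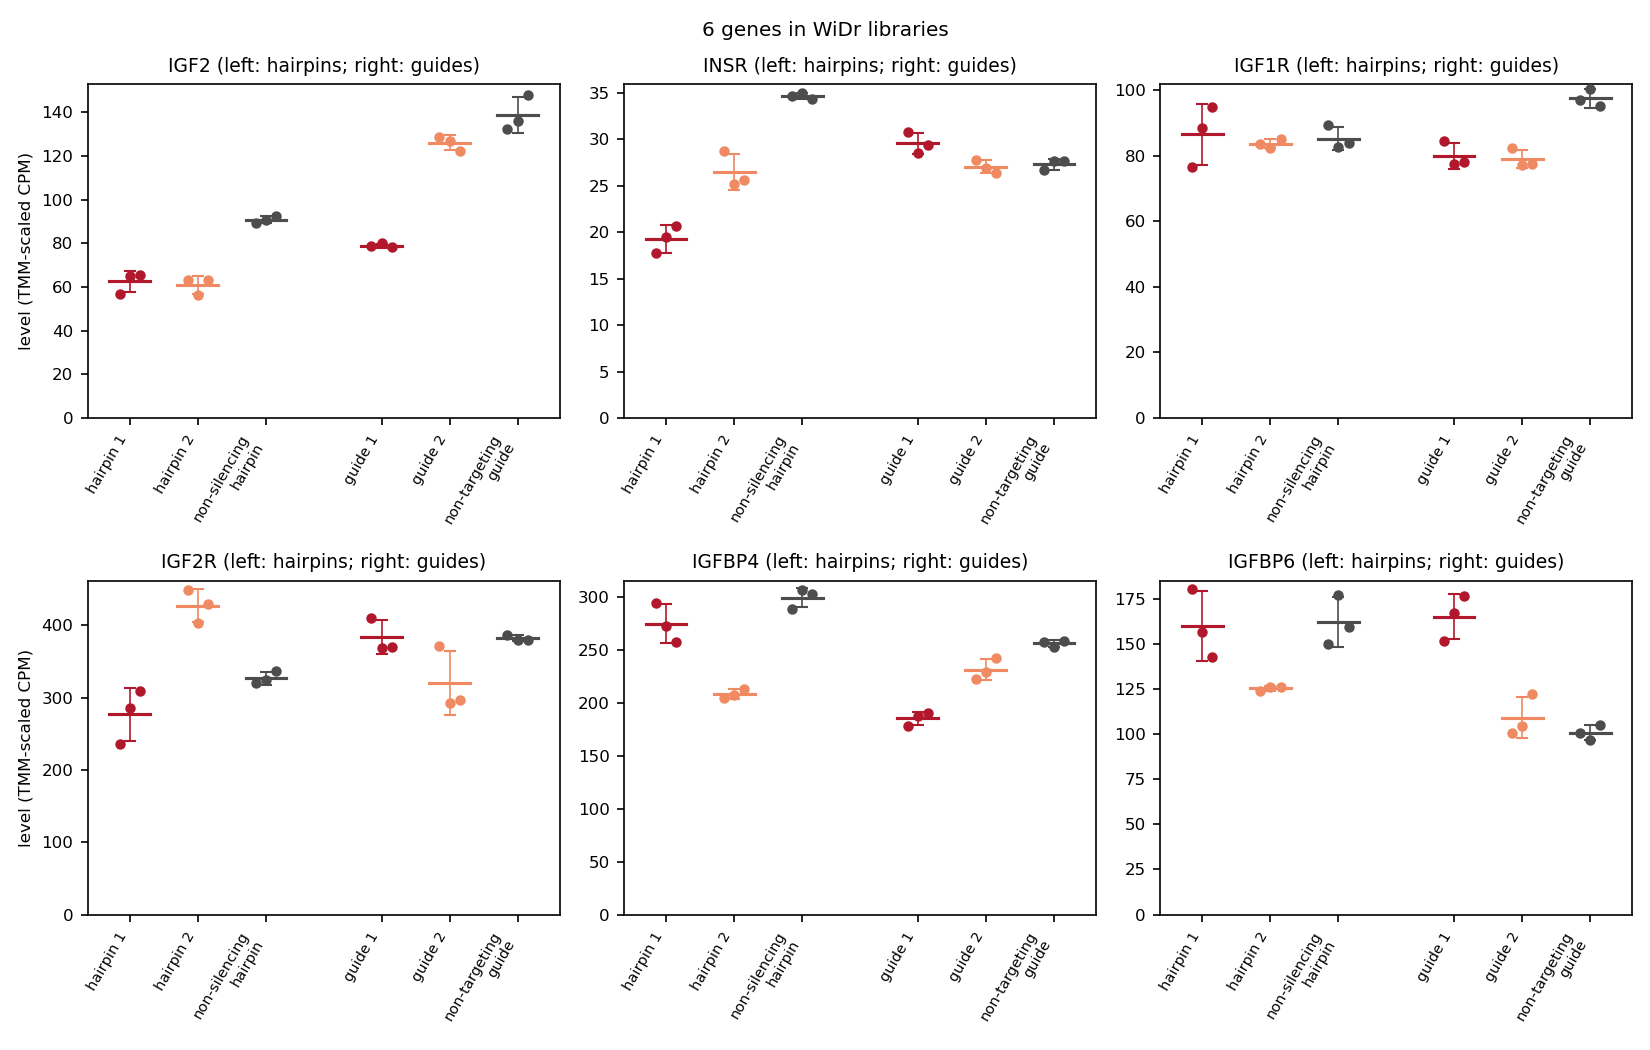
Levels of 6 genes in the 18 WiDr libraries (vertical axes, scaled CPM, each from 0 with its own scale), hairpin experiment at the left of each panel and guide experiment at the right. Points are libraries, long bars means and whiskers SD (n = 3). Every construct library lies below its controls for IGF2, as do the hairpin libraries for INSR and the guide libraries for IGF1R. INSR lies just above its control with guide 1 and overlaps it with guide 2, and IGF1R overlaps its control with both hairpins.

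The guide effect minus the hairpin effect, tested in the 18 WiDr libraries, passed for 3 of 6 members, 2 above and 1 below 0, where 41.6% of all genes passed (22.0% up, 19.6% down). It was 0.68 for INSR (SE 0.0782, edgeR adjusted p = 3.21e-07), which fell with the hairpins. For IGFBP6 it was 0.62 (SE 0.105, edgeR adjusted p = 0.000109). IGF1R gave -0.28 (SE 0.0732, edgeR adjusted p = 0.00358), a call that was lost with the length correction (-0.05, adjusted p = 0.423) and in the fit of all 36 libraries (-0.30, adjusted p = 0.415). IGF2 at 0.09 (SE 0.0702, edgeR adjusted p = 0.311), IGFBP4 at 0.03 (SE 0.0625, edgeR adjusted p = 0.771) and IGF2R at -0.19 (SE 0.108, edgeR adjusted p = 0.17) did not pass. The controls of both experiments also differed. With the non-targeting guide, IGF2 stood 0.59 above the non-silencing hairpin (SE 0.0571, edgeR adjusted p = 9.09e-09), IGF1R 0.17 above it (SE 0.0597, edgeR adjusted p = 0.019), IGFBP6 at -0.71 (SE 0.0861, edgeR adjusted p = 1.14e-06), INSR at -0.37 (SE 0.0635, edgeR adjusted p = 3.26e-05) and IGFBP4 at -0.25 (SE 0.0510, edgeR adjusted p = 0.000244). In the fit of all 36 libraries IGF1R (adjusted p = 0.452) and IGFBP4 (adjusted p = 0.165) were not called. The main count is 5 of 6 members, where 55.5% of all genes passed (27.5% up, 28.0% down). Construct type, vector and culture cannot be told apart in this comparison.

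In MDA-MB-468 1 of 8 tested members passed with hairpin 1, where 2.27% of all genes passed (1.24% up, 1.03% down), and 0 with hairpin 2, where 3.49% passed (1.69% up, 1.80% down). Between the hairpins 0 passed as well, where 0.437% of all genes did (0.191% up, 0.246% down). With hairpin 2, and between the hairpins, 3 members had an unadjusted p under 0.05, where the share of all genes was not counted. DESeq2 called 2 and 1 members, and 1103 and 386 of all genes. IGFBP5, a binding protein that adheres to extracellular matrix, rose with hairpin 1. It had 24.8, 24.6 and 23.1 CPM with hairpin 1 and 17.2, 19.1 and 13.3 CPM with hairpin 2, against 6.39, 11.99 and 10.96 CPM in the controls, so that all 6 hairpin libraries lay above all 3 controls. The log2 fold change was 1.28 with hairpin 1 (SE 0.215, edgeR adjusted p = 0.0182) and 0.74 with hairpin 2 (SE 0.214, edgeR adjusted p = 0.112). The call with hairpin 1 was lost when control replicate 3 or any 1 hairpin 1 library was left out, at log2 fold changes of 1.27 to 1.36 and adjusted p values of 0.068 to 0.0871.

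INSR in MDA-MB-468 had 40.4, 36.3 and 38.5 CPM with hairpin 1 and 44.6, 48.6 and 41.4 CPM with hairpin 2, against 26.7, 35.9 and 33.0 CPM in the controls. The groups did not overlap, but neither log2 fold change passed, at 0.25 (SE 0.113, edgeR adjusted p = 0.407) and 0.47 (SE 0.113, edgeR adjusted p = 0.0597). IGFBP4 had 29.3, 27.6 and 29.1 CPM with hairpin 1 and 36.4, 32.2 and 44.9 CPM with hairpin 2, against 58.0, 41.0 and 42.0 CPM in the controls, with log2 fold changes of -0.74 (SE 0.165, edgeR adjusted p = 0.0613) and -0.35 (SE 0.164, edgeR adjusted p = 0.362). IGFBP3, the most abundant binding protein of this line, had 204 ± 8.08 CPM with hairpin 1 and 276 ± 21.0 CPM with hairpin 2, against 233 ± 14.3 CPM in the controls. The hairpin 1 libraries lay below the controls and the hairpin 2 libraries above them, and the log2 fold changes of -0.22 and 0.21 did not pass (edgeR adjusted p = 0.279 and 0.234). Hairpin 2 stood 0.43 above hairpin 1 for IGFBP3, which did not pass either (edgeR adjusted p = 0.0744). DESeq2 called IGFBP4 with hairpin 1 (adjusted p = 0.0014), and INSR and IGFBP5 with hairpin 2 (adjusted p = 0.00492 and 0.0211). It also called IGFBP3 between the hairpins (adjusted p = 8.3e-05). IGF1R, IGF2R, IGFBP2 and IGFBP6 overlapped between all groups of this line and did not pass, with IGF1R at 37.4, 35.6 and 32.7 CPM on average for hairpin 1, hairpin 2 and the controls. In the order of the replicates the share of counts on transcripts over 7 kb was 10.9, 10.3 and 9.62% with hairpin 1, 9.35, 12.1 and 7.92% with hairpin 2 and 7.77, 11.7 and 9.44% in the controls. IGF2R had 136, 116 and 97.4 CPM with hairpin 1, 94.3, 146 and 69.7 CPM with hairpin 2 and 70.4, 172 and 113 CPM in the controls.

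**Figure D5:**
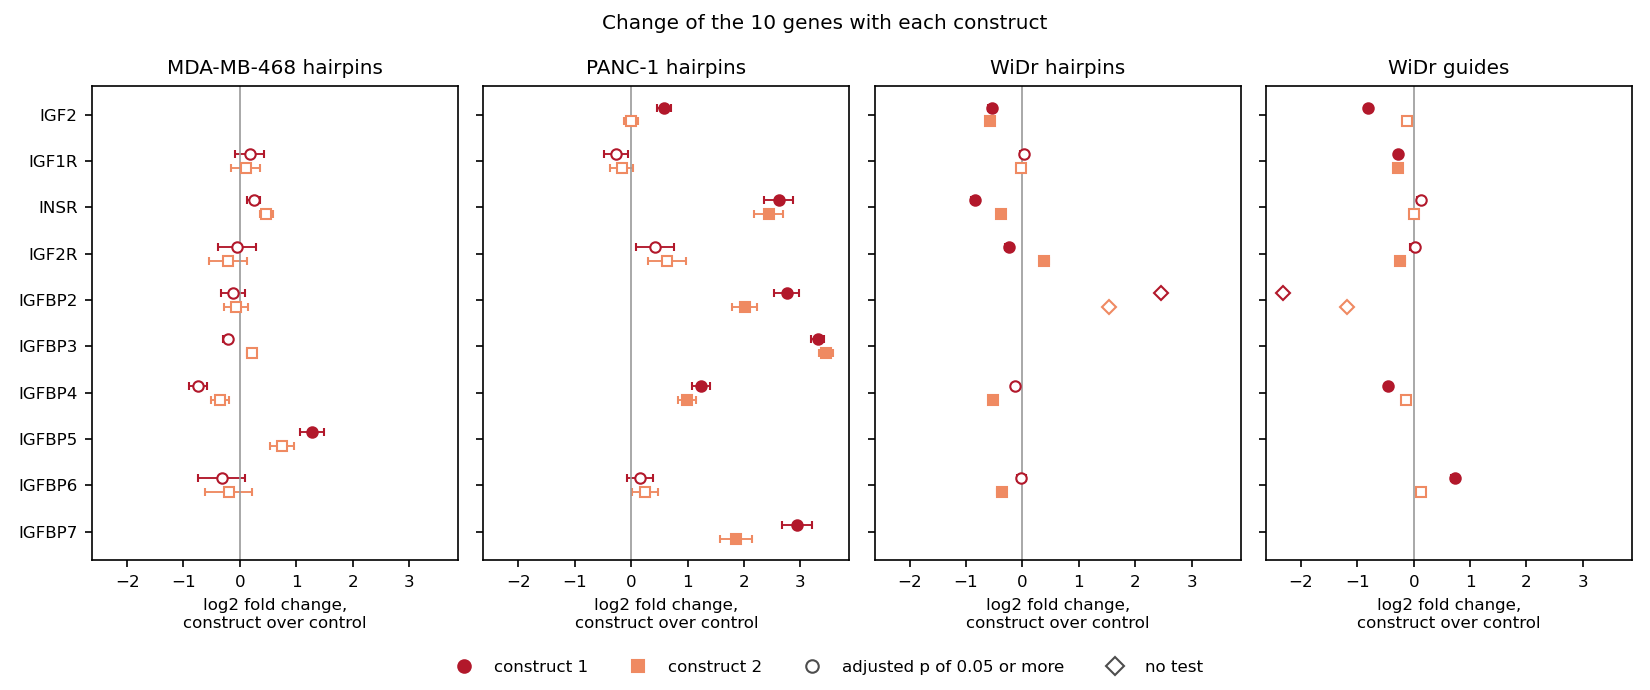
Log2 fold change of each gene with construct 1 (circles) and construct 2 (squares) over its own control (horizontal axis), by experiment. Whiskers are SE, filled symbols passed at an edgeR adjusted p under 0.05, open symbols did not, and diamonds are IGFBP2 in WiDr, which has no test. IGFBP2, IGFBP3, INSR, IGFBP4 and IGFBP7 lie to the right in PANC-1, and genes too low to test are left blank. IGFBP7 in PANC-1 is drawn filled but entered the test only through the hairpin groups, so its fill is not read as a result.

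Other genes of the pathway were read in 6 lists, counted where both constructs of an experiment passed in the same direction. Among all genes this held for 12.7% upward and 11.1% downward in PANC-1, 12.3% and 12.9% for the WiDr hairpins, 8.48% and 6.26% for the WiDr guides, and 0.744% and 0.567% in MDA-MB-468. Where counts at an unadjusted p under 0.05 are given below, the share of all genes was not counted.

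Proteases that cut binding proteins, and their inhibitors, had 4 of 9 tested genes that rose in PANC-1 and 0 that fell. STC2, a stanniocalcin that inhibits PAPPA, had 94.3 ± 2.36 CPM with hairpin 1 and 72.1 ± 1.42 CPM in the libraries labelled hairpin 2, against 27.1 ± 1.15 CPM in the controls, log2 fold changes of 1.82 and 1.40 (edgeR adjusted p = 9.78e-07 and 4.58e-06). Its relative STC1 rose by 1.43 and 1.66 (edgeR adjusted p = 0.000296 and 0.000111). HTRA1, a secreted serine protease, rose by 4.07 and 3.39. In MDA-MB-468 2 of 10 genes of this list rose, HTRA1 by 1.04 and 0.65 (edgeR adjusted p = 0.00225 and 0.0131) and the matrix metalloprotease MMP7 by 0.80 and 1.84 (edgeR adjusted p = 0.0133 and 0.000193). In WiDr with hairpins 2 of 6 fell. CTSD, a lysosomal aspartic protease, had 625 ± 16.8 CPM with hairpin 1 and 822 ± 8.59 CPM with hairpin 2, against 1218 ± 67.1 CPM in the controls, and FURIN, a proprotein convertase, changed by -0.39 and -0.18 on the log2 scale. With WiDr guides 1 of 7 fell, the metalloprotease ADAM28, by 0.57 and 0.53 on the log2 scale (edgeR adjusted p = 5.32e-05 and 0.000329).

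Of the list of adaptors and kinases below the receptors, 6 of 31 tested genes rose and 2 fell in PANC-1. In MDA-MB-468 edgeR called 0 of 33, and 1 at an unadjusted p under 0.05. The named PANC-1 genes were the translation inhibitor EIF4EBP1, at 0.66 and 0.66, the GTPase RHEB, at -0.57 and -0.70, and the phosphatase PTPN2, at -0.66 and -0.73. In WiDr with hairpins 3 of 32 rose and 4 fell. GRB10, an adaptor that restrains INSR and IGF1R, had 159 ± 9.21 CPM with hairpin 1 and 163 ± 3.36 CPM with hairpin 2, against 102 ± 0.737 CPM in the controls, log2 fold changes of 0.63 and 0.67 (edgeR adjusted p = 4.07e-08 and 2.29e-08). PIK3R3, a regulatory subunit of PI3-kinase, changed by 0.80 and 1.21, and the receptor adaptor IRS2 by -0.42 and -0.68. With WiDr guides 4 of 31 rose and 2 fell. GRB10 had 108 ± 1.47 CPM with guide 1 and 94.9 ± 1.498 CPM with guide 2, against 76.5 ± 1.66 CPM in the controls, log2 fold changes of 0.51 and 0.33 (edgeR adjusted p = 2.06e-07 and 9.06e-05). FOXO1, a transcription factor held out of the nucleus by AKT, changed by 0.49 and 0.26, and MLST8, a subunit of the mTOR complexes, by -0.28 and -0.22.

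In the list of the IGF2 locus and proteins that bind IGF2 mRNA, 2 of 7 rose in PANC-1. PLAGL1, an imprinted zinc finger factor, had 19.1 ± 1.80 CPM with hairpin 1 and 13.6 ± 1.41 CPM in the libraries labelled hairpin 2, against 3.84 ± 0.737 CPM in the controls, log2 fold changes of 2.33 and 1.80 (edgeR adjusted p = 9.67e-06 and 3.55e-05). PLAG1, which is known to activate IGF2 promoters, rose by 1.10 and 1.06 (edgeR adjusted p = 0.0018 and 0.00212), while IGF2 itself rose with hairpin 1 alone. In MDA-MB-468 1 of 6 rose and 1 fell. H19, the noncoding RNA of the imprinted IGF2 domain, had 6.93 ± 0.487 CPM with hairpin 1 and 3.09 ± 0.485 CPM with hairpin 2, against 12.1 ± 1.15 CPM in the controls, log2 fold changes of -0.84 and -2.00 (edgeR adjusted p = 0.0157 and 0.000199). In WiDr with hairpins 1 of 5 rose, IGF2BP3, by 0.39 and 0.45. With guides edgeR called 0 of 5, and 1 at an unadjusted p under 0.05.

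The list of mannose 6-phosphate tagging and sorting, the route IGF2R shares, had 8 tested genes in each experiment. Of these 2 fell and 0 rose in PANC-1, likewise 2 and 0 for the WiDr hairpins, and 2 fell and 1 rose for the WiDr guides. In MDA-MB-468 edgeR called 0, also at an unadjusted p under 0.05. M6PR, the smaller mannose 6-phosphate receptor, changed by -0.31 and -0.31 in PANC-1 and by -0.26 and -0.23 with WiDr hairpins, and by 0.16 and 0.15 with WiDr guides. Other named genes were the sorting receptor SORT1 in PANC-1, at -0.87 and -0.57, and the adaptor GGA1 with WiDr hairpins, at -0.17 and -0.18. With WiDr guides they were the tagging enzyme GNPTAB, at -0.36 and -0.25, and the adaptor GGA2, at -0.19 and -0.30. In the CCN family of secreted proteins with an IGFBP-like domain, CTGF changed by -0.69 and -1.17 and CYR61 by -0.72 and -1.09 in PANC-1, where 2 of 5 fell. With WiDr hairpins 2 of 3 fell, CTGF by 0.74 and 0.37 and CYR61 by 0.67 and 0.68 on the log2 scale, and edgeR called 0 of 3 with WiDr guides and in MDA-MB-468, where 1 each passed at an unadjusted p under 0.05. Of the other ligands, receptors and binding proteins, 11 in all, 5 could be tested in MDA-MB-468 and 2 in each other experiment. IGFL1 fell by 1.04 and 1.40 in MDA-MB-468 and IGFBPL1, an IGFBP-like protein, by 0.83 and 0.58 in PANC-1.

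The genes whose group means ran most like those of IGFBP2 were described by Pearson's r over the 12 groups, centred within each experiment, among 11541 genes. The group means of an experiment are centred on their common mean and so are not independent. The WiDr values of IGFBP2 had also chosen it, so r carries no test. The highest were PLIN3 (0.944), ITGA1 (0.942), VPS16 (0.940), GUSB (0.937) and HDGFRP2 (0.935). ITGA1, an integrin subunit, averaged 36.4 and 31.6 CPM with WiDr hairpins 1 and 2, against 22.9 CPM in their control, and 45.04 and 59.0 CPM with guides 1 and 2, against 72.7 CPM in theirs. The lowest were TMEM45B (-0.974), AMD1 (-0.974) and KRT19 (-0.955). TMEM45B averaged 76.0 and 101 CPM with WiDr hairpins 1 and 2, against 142 CPM in their control, and 164 and 97.8 CPM with guides 1 and 2, against 74.1 CPM in theirs. Among the members r was 0.604 for IGFBP3, 0.587 for IGFBP4, 0.347 for INSR, 0.301 for IGF2R, 0.296 for IGF2, -0.013 for IGF1R and -0.297 for IGFBP6. IGFBP3 averaged 0.0109 CPM or less in every WiDr group, so its r says nothing of the WiDr changes.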

How the data were processed

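The authors deposited 1 table of RSEM expected counts per gene symbol for 36 libraries. Reads were aligned and counted with Bowtie2 2.1.0 and RSEM 1.2.15 on hg38, per the submitters' processing notes, while annotation, settings and strand were not given in the sources used. Expected counts were rounded to whole numbers. Each experiment (3 groups, 9 libraries) was fitted across all genes with edgeR 4.0.16 in R 4.3.3 (TMM scaling, filterByExpr with a minimum count of 10, robust quasi-likelihood test, Benjamini-Hochberg adjustment over all genes tested, threshold 0.05). The guide and hairpin experiments of WiDr were compared in 1 fit of 18 libraries. The SE was taken as the size of the log2 fold change over the square root of its F statistic. Levels are CPM after TMM scaling over all libraries. Tests were checked on simulated data, where 76.1% of MDA-MB-468, 62.7% of PANC-1, 85.1% of WiDr hairpin and 86.6% of WiDr guide genes changed 2-fold were recovered. Of genes changed 1.5-fold, 28.4, 25.4, 65.7 and 68.7% were recovered in that order. False calls numbered 5, 8, 5 and 18, where 67, 67 and 66 genes had been changed 1.5-, 2- and 4-fold in each simulation. Of genes changed 4-fold, 90.9, 90.9, 95.5 and 92.4% were recovered. The simulated libraries were drawn independently, without the length and ribosomal RNA differences of the real ones, so error in the real data was not tested.

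Groups follow the sample titles. Replicates are biological per the labels, which do not say more, so p-values measure the spread between these libraries. No 2 libraries of a group agreed within counting noise. Alternatives were DESeq2 1.42.0, RLE scaling, no filter, a replicate block, 1 fit of all libraries, the compared groups alone, no ribosomal RNA genes, guide groups by the genotype field, each library left out, and, chosen after seeing the data, a loess correction for transcript length (span 0.5), using GENCODE 29 lengths, which 23899 of 26475 symbols (90.3%) had. The members and lists were chosen with earlier results of these data known. Pathway genes were named by rule: at most 3 per list and experiment, called the same way with both constructs, at 5 CPM or more, by the smaller change. Promoters were found for 8 of 10 members. Intervals and floors (3 counts) cover counting error only. Library totals were 28371119 to 49237321. The gene that hairpins and guides address is not reported.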

Additional observations from a re-analysis of the deposited data

Results flagged for a closer look

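Within WiDr, the guide effect minus the hairpin effect differed from 0 by its own test (edgeR, 18 libraries) for 3 of 6 tested members. Among all genes 41.6% passed this test (22.0% up, 19.6% down). INSR, the insulin receptor, gave 0.68, with a fall in all 6 hairpin libraries and no call with either guide. IGFBP6 gave 0.62, with a rise with guide 1 and a fall with hairpin 2. IGF1R gave -0.28, which was -0.05 with the transcript length correction and was not called there or in 1 fit of all 36 libraries. The controls differed for these genes too. The non-targeting guide over the non-silencing hairpin was -0.37 for INSR, -0.71 for IGFBP6 and 0.17 for IGF1R.

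Between lines, 3 differences are listed and were not tested. In each, all construct libraries of an experiment lay on one side of their controls. Those of the other experiment lay on the opposite side. How many of all genes separate in this way was not counted. The mean log2 fold change of INSR in WiDr hairpins minus that in PANC-1 hairpins was -3.14, and minus that in MDA-MB-468 hairpins -0.97. For IGFBP4, WiDr guides minus PANC-1 hairpins was -1.41. Against its control INSR did not pass with either MDA-MB-468 hairpin (edgeR adjusted p = 0.407 and 0.0597). IGFBP4 did not pass with WiDr guide 2 in the main analysis (edgeR adjusted p = 0.0544), but did in several alternatives.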

How the results depend on the processing

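Counts below are of members called, then of all genes, beside the values of the main analysis. With DESeq2 MDA-MB-468 gave 2 members and 805 genes for hairpin 1 (1 and 332), 2 and 1103 for hairpin 2 (0 and 511) and 1 and 386 between the hairpins (0 and 64), and PANC-1 gave 3 and 256 between the hairpins (0 and 16). With 1 fit of all 36 libraries MDA-MB-468 gave 2 and 900, 1 and 1268, and 1 and 399 in that order, and PANC-1 2 and 510 between the hairpins. The same fit gave in WiDr 3 and 3964 for hairpin 2 (5 and 6403), 2 and 3210 between the hairpins (4 and 6071), 3620 genes for guide 1 (6100), 0 and 1261 for guide 2 (2 and 3731), 2 and 2802 between the guides (4 and 5040), 3414 genes for guides minus hairpins (6189) and 3 members between the controls (5). With the length correction MDA-MB-468 gave 3 and 954, 3 and 1427, and 1 and 379, PANC-1 2 and 184 between the hairpins, and WiDr guide 2 1 member. With no filter MDA-MB-468 hairpin 1 gave 2 members. With the compared groups alone, 177 and 127 genes passed for MDA-MB-468 hairpins 1 and 2, 2966 for PANC-1 hairpin 1 and 28 between the PANC-1 hairpins. By the genotype field guide 1 gave 1 member and 1353 genes (4 and 6100), guide 2 gave 0 and 127, and the guides differed in 0 and 0. The differences between guides were then turned round for IGF2 (-0.47), IGF2R (0.079), IGFBP2 (-0.70), IGFBP4 (-0.17) and IGFBP6 (0.44). Of 107 member results, DESeq2 gained 9 calls, the fit of all libraries gained 5 and lost 13, and the length correction gained 20 and lost 4. The cause of these differences was not tested.

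Replicate numbers are shared between groups, but same-numbered libraries did not deviate together (correlations from -0.92 to 0.92), so they were not taken as pairs. With a replicate block 2943 and 3254 genes passed for PANC-1 hairpin 1 and the libraries labelled hairpin 2 (4566 and 5053), 5 between them, and 35 between the MDA-MB-468 hairpins. Of the members' calls 1 changed under the block, IGFBP4 with guide 2, which then passed.

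Leaving out 1 library gave, in MDA-MB-468, 0 to 1 members and 85 to 331 genes for hairpin 1, 167 to 567 genes for hairpin 2, and 0 to 1 members and 11 to 129 genes between the hairpins. In PANC-1 it gave 2851 to 6797 genes for hairpin 1, 3116 to 7958 for the libraries labelled hairpin 2, and 0 to 2 members and 5 to 121 genes between them, each highest without control replicate 1. WiDr guide 2 gave 1 to 2 members and 2436 to 4138 genes. Without ribosomal RNA genes all 107 member results kept their direction, and those with a test kept their side of the threshold. Genes with few counts, such as IGFBP7 in PANC-1 controls (4 to 10), are limited by depth.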
